A study of Mus musculus with 6 samples.

Results

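The 10 genes described here encode parts of the inflammasome and of pyroptosis, the lytic and inflammatory death of macrophages. They are Nlrp3, Aim2 and Nlrc4, Pycard, Casp1, Casp4 and Casp8, Gsdmd, Il1b and Il18, and they were taken by symbol from a count table of 35976 gene symbols, which held all 10. The samples were 6 libraries of RAW264.7, a mouse macrophage-like cell line that descends from a virus-induced tumour. The 3 control libraries came from cells labelled as untreated, and the 3 itaconate libraries from cells exposed to itaconate for 24 h. Neither the dose nor the chemical form of the itaconate is given in the labels, no vehicle is named for the controls, and no bacterial product or other inflammasome stimulus is named for either group. The assay was 3′ mRNA sequencing, in which a read marks the end of a transcript, and levels are given as CPM, counts relative to the library total, scaled between libraries by the TMM method.

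An inflammasome forms when a sensor protein meets a danger signal in the cytosol. Most sensors reach caspase-1 through the adaptor ASC, the product of Pycard, and active caspase-1 cuts the precursors of interleukin-1β and interleukin-18 as well as gasdermin D, whose freed end makes pores in the plasma membrane. Macrophages usually need a priming signal through Toll-like receptors and NF-kB before they hold enough NLRP3 and pro-interleukin-1β. Itaconate is made by activated macrophages from the TCA cycle intermediate cis-aconitate, and the RAW264.7 line is known for lacking ASC protein.

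None of the inflammasome genes was called different between the groups, and the pathway was present in part only. Of the 10 genes, 8 had enough counts to be tested, namely Nlrp3, Aim2, Nlrc4, Casp1, Casp4, Casp8, Gsdmd and Il18. Pycard and Il1b did not: Pycard had 15 counts over the 3 control libraries and 0 over the 3 itaconate libraries, and Il1b had 24 and 2. Among the 8 tested genes, 0 passed as higher and 0 as lower (edgeR adjusted p under 0.05 in the quasi-likelihood test, with Benjamini-Hochberg adjustment over 10636 genes). Over all tested genes 21.9% were called, 10.7% higher and 11.2% lower. At an unadjusted p under 0.05, 2 of the 8 passed, Aim2 toward higher and Il18 toward lower levels, against 32.2% of all genes. By the same unadjusted threshold limma-voom passed the same 2, and DESeq2 passed Aim2 but not Il18. At the adjusted threshold given above, limma-voom called 0 of these 8 genes. DESeq2 called 0 of these 8 and did not call Il1b, and it gave no adjusted p for Pycard (unadjusted p = 0.0268). The median log2 fold change (itaconate over control) of the 8 genes was -0.106, beside -0.007 over all genes tested, and the single values ran from -0.45 to 0.33.

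Library totals ran from 5202626 to 6098934 counts, so that 3 counts in a library corresponded to 0.487 to 0.565 CPM. That floor and the counting intervals below cover counting error only, because the reads carry no molecular identifiers and copies of 1 molecule are counted as several. Nothing in the labels ties the replicate libraries to separate cultures, and the p-values therefore reflect the spread between libraries, which may be technical. The cell type was checked with 10 macrophage markers, all of which were tested. Of them 7 were lower and 1 higher in the itaconate group, and their summed level ran from 8451 to 9594 CPM in control and from 6273 to 6610 CPM in itaconate libraries. The part of this difference in the values below was not tested. Of 25 markers of other cell types (lymphocytes, granulocytes, fibroblasts and epithelium), 14 had 0 counts everywhere and the others at most 11 counts in a library, with a summed level of 3.68 to 4.29 CPM in control and 2.80 to 4.20 CPM in itaconate libraries.

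**Figure D1:**
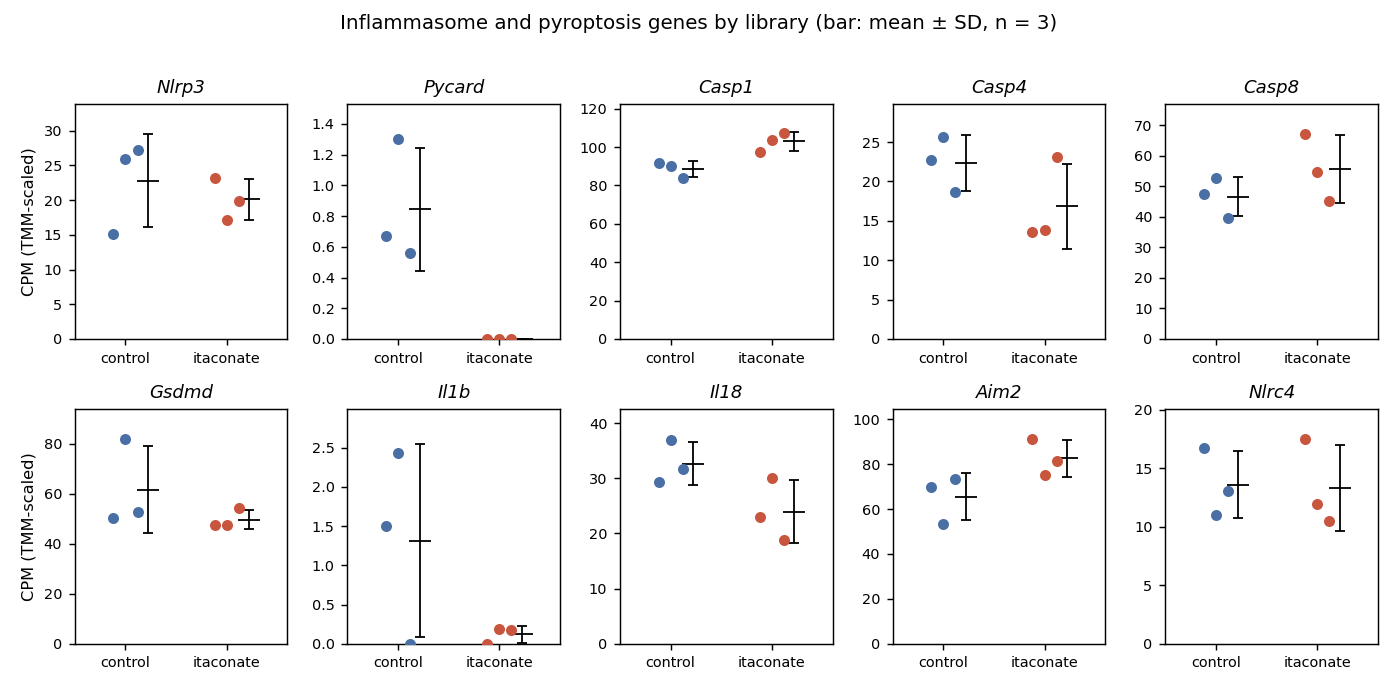
Level of each of the 10 genes in every library, in TMM-scaled CPM on a linear axis from 0 with its own range in each panel. Points are libraries, bars the mean ± SD of 3 libraries. Pycard and Il1b lie near 0, and of the other 8 genes only Casp1 and Aim2 have all itaconate libraries above all control libraries.

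The 3 sensors were each detected in all 6 libraries. Nlrp3, the sensor of potassium loss and membrane damage (chromosome 11, 59541569 to 59566955), had 15.1, 25.99 and 27.24 CPM in the control and 23.2, 17.2 and 19.9 CPM in the itaconate libraries. The itaconate values lay within the range of the control values, whose lowest was control replicate 1. The log2 fold change was -0.18 ± 0.23 (SE, edgeR adjusted p = 0.655), with a 95% interval from 0.639-fold to 1.22-fold. Changes within those bounds are not excluded by the interval.

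Priming of Nlrp3 and Casp4 is known to run through NF-kB, and so the DNA before their start sites is shown together with that of Nfkbia, the NF-kB inhibitor gene that is itself an NF-kB target. Sequences are those of RefSeq for GRCm38.p6, the assembly named mm10, and 9 of the 10 genes had an entry. They end at the start site or at the first annotated exon base. Capitals mark matches to the kB consensus on either strand.
Nlrp3: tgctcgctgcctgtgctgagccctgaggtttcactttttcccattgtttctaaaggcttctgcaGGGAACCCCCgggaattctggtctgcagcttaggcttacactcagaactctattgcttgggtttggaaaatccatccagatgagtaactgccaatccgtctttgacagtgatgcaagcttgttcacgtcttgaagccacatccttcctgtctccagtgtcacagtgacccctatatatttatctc
Casp4: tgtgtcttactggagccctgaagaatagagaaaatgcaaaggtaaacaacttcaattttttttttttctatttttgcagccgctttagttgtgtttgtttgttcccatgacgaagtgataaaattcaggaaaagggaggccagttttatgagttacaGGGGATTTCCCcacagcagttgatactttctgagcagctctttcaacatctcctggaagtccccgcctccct
Nfkbia: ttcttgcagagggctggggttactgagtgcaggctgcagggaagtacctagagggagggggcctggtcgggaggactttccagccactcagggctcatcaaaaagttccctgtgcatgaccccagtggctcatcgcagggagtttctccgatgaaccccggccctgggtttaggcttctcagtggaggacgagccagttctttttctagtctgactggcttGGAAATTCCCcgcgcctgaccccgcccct
The Nlrp3 stretch is chr11:59541319-59541567 on the plus strand, with the match beginning 186 bases before the start. The Casp4 stretch is chr9:5308599-5308827 on the plus strand and holds 2 overlapping matches that begin 93 and 92 bases before the start. The Nfkbia stretch is chr12:55492648-55492897 on the minus strand, with a match 29 bases before the start. RefSeq gives Nlrp3 and Casp4 each 2 start sites. The later Nlrp3 start, with the window chr11:59542436-59542685, has no match, and the 2 Casp4 windows overlap and share theirs. The consensus was thus in 3 of the 11 windows of the 9 inflammasome genes with an entry, and in 1.43% of all 32536 windows of 250 bases. By gene this was 2 of the 9, Nlrp3 and Casp4, and the Il1b window had no match. Outside the set, matches also lay before Tlr2, which fell, and Dhx15, which was not called. Of the 3 genes printed, Nfkbia fell, from 614.6 ± 65.6 to 370.2 ± 23.0 CPM (SD, n = 3, edgeR adjusted p = 1.1e-09), while Nlrp3 and Casp4 were not called.

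Aim2, the sensor of cytosolic double-stranded DNA (chromosome 1, 173349547 to 173466040), came closest to the threshold. Its level was 69.8, 53.4 and 73.3 CPM in control and 91.3, 74.9 and 81.3 CPM in itaconate libraries, with every itaconate library above every control library. Such separation was seen in 2 of the 8 tested genes, Aim2 and Casp1, and in 35.6% of all genes tested. The mean went from 65.5 ± 10.6 to 82.5 ± 8.27 CPM (SD, n = 3), a log2 fold change of 0.33 ± 0.14 (SE) with edgeR adjusted p = 0.0701 and a 95% interval from 1.04-fold to 1.52-fold. Without control replicate 3 the value was 0.42 and passed (adjusted p = 0.048). Over the 12 alternative fits the adjusted p ran from 0.048 to 0.376 and the log2 fold change from 0.21 to 0.42.

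Aim2 lies in a cluster of interferon-inducible genes on chromosome 1, and 2 genes of that cluster that were listed with the sensors fell. Mndal, a nuclear member of the family, had 528.1, 537.5 and 558.5 CPM in control and 212.4, 200.3 and 166.1 CPM in itaconate libraries, a log2 fold change of -1.49 ± 0.09 (SE, edgeR adjusted p = 4.42e-19). Ifi204, a family member that has been linked to sensing of DNA, fell from 24.9 ± 4.01 to 8.29 ± 2.34 CPM (SD, n = 3). The log2 ratio of Aim2 to Mndal within a library, chosen after the values were seen, was -3.06 ± 0.23 in the control group (SD, n = 3) and -1.22 ± 0.19 in the itaconate group. An exact permutation test, two-sided, gave p = 0.1, which is the lowest value possible with 3 libraries a group, and 0.1 after adjustment over the 2 ratios computed. Aim2 and Mndal each separated the groups, in opposite directions, so their ratio had to separate them too and this p adds no support. Some 5.57% of the searched 3′ stretches of Mndal occur in Ifi203 or its pseudogene. Reads from those stretches may belong to either gene, and the share of the Mndal counts affected was not measured. The stretch before the Aim2 start and a short stretch around a match to the interferon-response core (GAAA, any 2 bases, GAAA) in Mndal are shown to compare the pair. Capitals mark that core in Mndal and the ETS-factor motif AGGAAGT in Aim2.
Aim2: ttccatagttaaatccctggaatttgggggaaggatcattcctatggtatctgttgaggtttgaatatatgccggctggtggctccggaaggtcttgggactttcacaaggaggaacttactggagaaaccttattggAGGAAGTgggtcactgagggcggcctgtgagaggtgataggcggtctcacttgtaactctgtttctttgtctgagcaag
Mndal: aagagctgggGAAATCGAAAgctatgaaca
The Aim2 stretch is chr1:173420354-173420570 on the plus strand, and the Mndal stretch is chr1:173880204-173880233 on the minus strand. The Mndal core begins 36 bases before the start used, and its stretch lies within the annotated span of the gene (173857215 to 173880382). Among the genes named, the core was not confined to genes that fell. It was also before Serpinb9 and Serpinb6a, which rose, Myd88, which fell, and Igtp and Irgm1, which were not called. Its share among all genes that fell was not counted. The interferon-response core, searched on both strands, was in 0 of the 11 windows of the inflammasome genes and in 2.98% of all windows. AGGAAGT was in 3 of the 11, those of Aim2, Nlrc4 and Pycard, and in 7.7% of all windows. These are matches of letters, and binding was not measured.

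Nlrc4, which is switched on by NAIP proteins that bind bacterial flagellin and secretion needles (chromosome 17, 74426255 to 74459144), had the smallest difference of the 8. Its level was 16.7, 11.1 and 13.1 CPM in control and 17.5, 11.96 and 10.49 CPM in itaconate libraries, so the groups overlapped fully. The log2 fold change was -0.03 ± 0.29 (SE, edgeR adjusted p = 0.955), and the 95% interval from 0.655-fold to 1.46-fold rests on 238 control and 217 itaconate counts. Its sign changed on leaving out control replicate 1 (0.15) or one of itaconate replicates 2 (0.04) and 3 (0.12). Its NAIP partners Naip2, Naip5 and Naip6 were tested and not called, with log2 fold changes of 0.17, -0.06 and -0.36 (chosen after their values were seen), and these genes are close paralogs whose reads may be divided in different ways by the counting.

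Pycard, which encodes the adaptor ASC (chromosome 7, 127991373 to 127993867), was near the detection floor. It had 4, 8 and 3 counts in the control libraries, equal to 0.670, 1.299 and 0.560 CPM, and 0 counts in each itaconate library. A count of 0 over the itaconate group allows a level of up to 0.183 CPM (3 counts over the group), and the observed control level was 4.68 times that limit. This ratio takes the 15 control counts as they are, without their counting error, and a difference between the groups was not called. The minimum for testing was not met, and in an edgeR fit without that filter the adjusted p was 0.197. Gm45205, a gene model on the opposite strand, overlaps 14.6% of the searched 3′ end of Pycard, and the strand setting of the counting is not given in the sources used here, so the few control counts may in part belong to that gene.

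**Figure D2:**
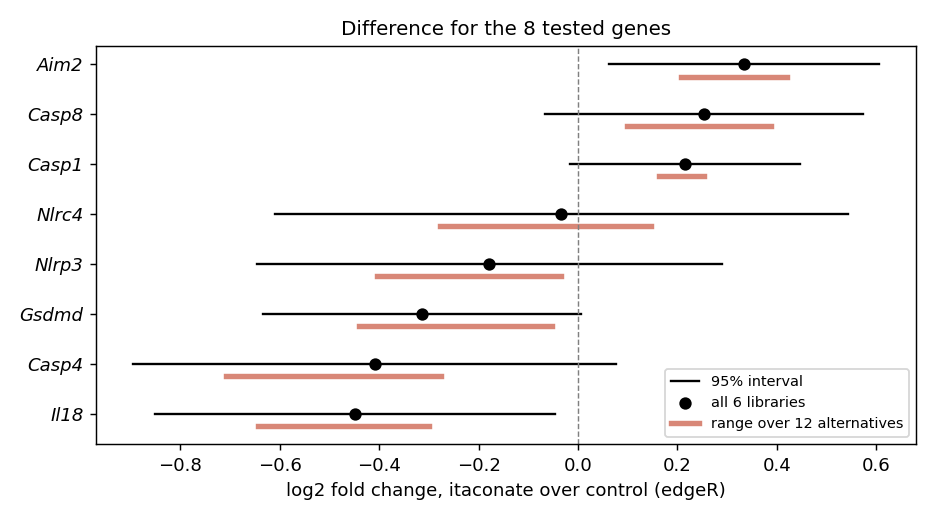
Log2 fold change (itaconate over control) of the 8 tested genes. Black points and lines are the edgeR value and its 95% interval with all 6 libraries, and red bars the range over 12 alternative fits. The intervals of Aim2 and Il18 do not include 0, those of the other 6 genes do, and the red bar of Nlrc4 spans 0.

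Transcripts of the inflammatory caspases Casp1 and Casp4 were found in every library, while Casp12 had 4 counts over the control and 0 over the itaconate libraries. Casp1, the protease at the centre of the canonical inflammasome (chromosome 9, 5298517 to 5307281), had 91.7, 90.2 and 84.0 CPM in control and 97.5, 103.7 and 107.5 CPM in itaconate libraries. All itaconate libraries were above all control libraries, by a small margin. Means were 88.6 ± 4.11 in control and 102.9 ± 5.04 CPM in itaconate libraries (SD, n = 3). This gave a log2 fold change of 0.22 ± 0.12 (SE, edgeR adjusted p = 0.191, 95% interval from 0.989-fold to 1.36-fold). The adjacent Casp4, also called caspase-11, binds bacterial lipopolysaccharide in the cytosol and cuts gasdermin D without a sensor complex. It had 22.8, 25.7 and 18.7 CPM in control and 13.6, 13.8 and 23.1 CPM in itaconate libraries. Itaconate replicates 1 and 2 lay below all controls and itaconate replicate 3 among them. The log2 fold change was -0.41 ± 0.24 (SE, adjusted p = 0.244, 95% interval from 0.538-fold to 1.05-fold). It was -0.71 without itaconate replicate 3 (adjusted p = 0.056). None of the searched 3′ stretches of Casp1 or Casp4 occurs in another annotated gene.

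Casp8, which starts apoptosis below death receptors and can also cut gasdermin D and pro-interleukin-1β (chromosome 1, 58795233 to 58847503), had 47.4, 52.6 and 39.7 CPM in control and 67.2, 54.8 and 45.1 CPM in itaconate libraries. The groups overlapped through itaconate replicate 3. The log2 fold change was 0.25 ± 0.16 (SE, edgeR adjusted p = 0.277, 95% interval from 0.956-fold to 1.49-fold) and was 0.10 without itaconate replicate 1. A predicted gene, Gm20257, shares 14.5% of the searched 3′ stretches of Casp8.

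Gsdmd, the pore-forming executor of pyroptosis (chromosome 15, 75862144 to 75867408), had 50.4, 81.9 and 52.8 CPM in control and 47.4, 47.5 and 54.2 CPM in itaconate libraries. Control replicate 2 stood above the 5 other libraries, which lay close together. The log2 fold change was -0.31 ± 0.16 (SE, edgeR adjusted p = 0.166, 95% interval from 0.645-fold to 1.005-fold). Without control replicate 2 it was -0.05 (adjusted p = 0.894), so the difference rests on that library.

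Of the 2 cytokine substrates of caspase-1, Il18 was expressed and Il1b was near the detection floor. Il18 (chromosome 9, 50554700 to 50581841), whose product drives interferon-γ release by lymphocytes, had 29.3, 37.0 and 31.7 CPM in control and 23.0, 30.1 and 18.9 CPM in itaconate libraries. Itaconate replicate 2 fell among the controls, and the other itaconate libraries were below them. The mean went from 32.7 ± 3.96 to 24.0 ± 5.67 CPM (SD, n = 3). Its log2 fold change of -0.45 ± 0.20 (SE) was the most negative of the 8 but was not called (edgeR adjusted p = 0.106, 95% interval from 0.554-fold to 0.969-fold). Without itaconate replicate 2 it was -0.64 and passed (adjusted p = 0.0441), and over the 12 alternative fits the adjusted p ran from 0.0441 to 0.372.

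Il1b, the gene of the fever-inducing interleukin-1β (chromosome 2, 129364569 to 129371164), had 9, 15 and 0 counts in the control libraries (1.51, 2.44 and 0 CPM) and 0, 1 and 1 counts in the itaconate libraries (0, 0.187 and 0.175 CPM). Control replicate 3 had no count, so the groups overlapped. Over the groups the scaled ratio of control to itaconate was 11.2, with a 95% counting interval from 2.79 to 98.1 that leaves out the spread between libraries. The adjusted p was 0.306 in edgeR without the filter and 0.204 in DESeq2. Both the Il1b and the Pycard counts are therefore too few to show a change between the groups by these tests.

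To place the set in its pathway, 102 further genes found in the table were grouped into 8 lists, and 78 of them were tested. Of these 12 were higher, 16 lower and 50 not called, and the median log2 fold change was -0.123, beside -0.007 over all genes. The share called was 35.9%, beside 21.9% of all genes, and since the lists were drawn up with results of these data known, it is given as a description. In bulk RNA, fewer cells of a kind and less RNA per cell cannot be told apart.

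**Figure D3:**
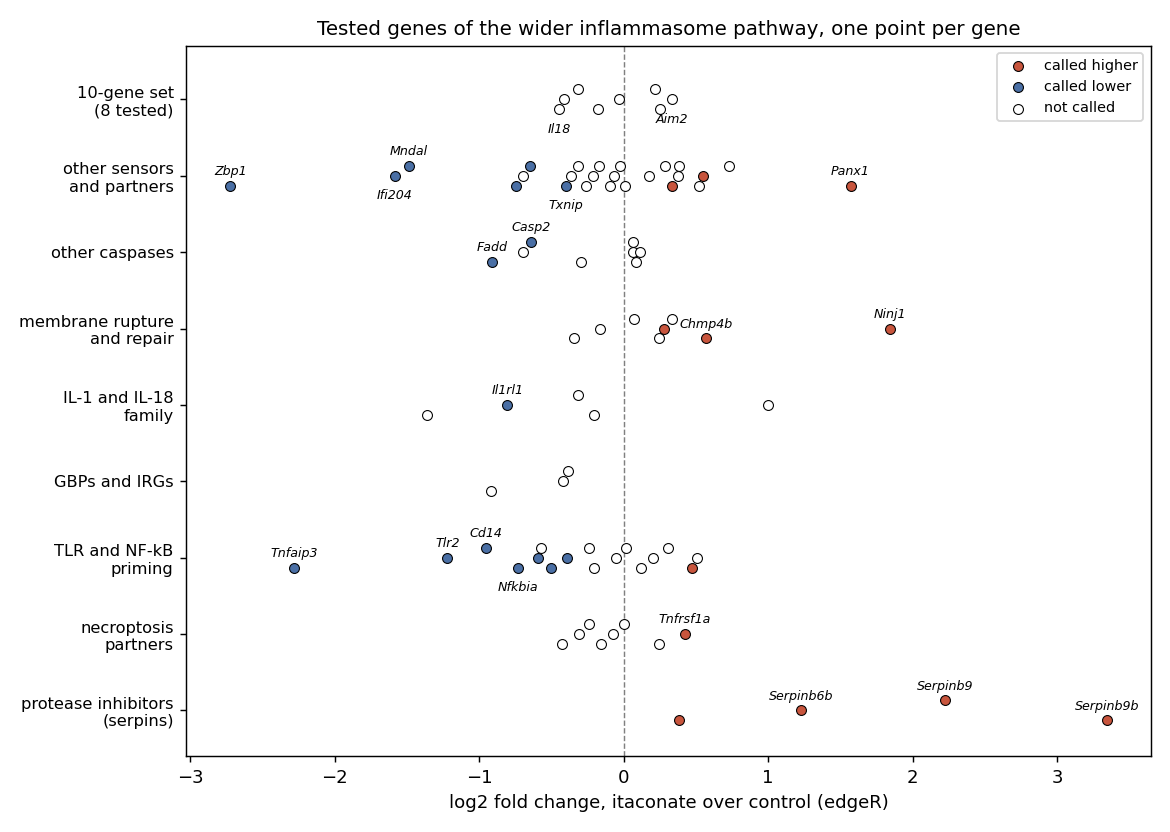
Log2 fold change (itaconate over control) of the 8 tested inflammasome genes and of the 78 tested genes of the 8 pathway lists, one point per gene. Filled points were called (edgeR adjusted p under 0.05), red for higher and blue for lower. The upper row holds open points only, between -0.45 and 0.33, while Serpinb9b reaches 3.34 and Zbp1 -2.72.

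Downstream of gasdermin D, Ninj1 rose. It encodes the protein that ruptures the plasma membrane in lytic death (chromosome 13, 49187529 to 49196251), and its level went from 238.7, 224.3 and 244.4 CPM in control to 774.9, 846.8 and 916.6 CPM in itaconate libraries. The log2 fold change was 1.84 ± 0.08 (SE, edgeR adjusted p = 7.36e-24). The log2 ratio of Gsdmd to Ninj1 within a library, chosen after the values were seen, went from -1.97 ± 0.45 to -4.09 ± 0.06 (SD, n = 3), again with p = 0.1 in the exact two-sided test. Ninj1 alone had every itaconate library above every control library, and the pair was chosen with that known, so this p adds no support. In its list of gasdermins, membrane rupture and repair, 3 of 8 tested genes rose and 0 fell, with a median of 0.265. The share called was 37.5%, beside 21.9% of all genes tested. The other risers were Chmp4b (0.57 ± 0.09) and Chmp2a (0.28 ± 0.10), subunits of the ESCRT-III machinery that removes damaged membrane, and the call of Chmp2a was lost in 6 of the 12 alternatives (adjusted p of 0.0515 to 0.15). Chmp3 and Pdcd6ip were not called (0.25 and 0.07). Gasdermin E, listed under its older symbol Dfna5, was not called (-0.35), and Gsdma3, Gsdmc and Gsdmc2 had 0 counts.

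All 4 tested inhibitors of inflammatory proteases rose, with a median of 1.73, while 10.7% of all tested genes were called higher. The list was drawn up with results of these data known, so these values are a description. All 4 lie on chromosome 13 between 32956811 and 34002794. The list held 6 genes, and 2 of them were too low to test. Serpinb1a had 0 counts over the control and 1 over the itaconate libraries, and Serpinb2 had 3 and 0. Serpinb9b went from 1.17, 1.95 and 3.36 CPM to 18.3, 19.2 and 28.0 CPM (log2 fold change 3.34 ± 0.36). Its control counts were only 7, 12 and 18, and it was kept for testing through the itaconate libraries. Serpinb9, the granzyme B inhibitor, went from 5.69, 4.22 and 5.60 to 23.7, 24.5 and 24.5 CPM (2.23 ± 0.29). Serpinb6b rose by 1.23 ± 0.25 and Serpinb6a by 0.39 ± 0.10. Serpinb6a overlaps other genes in 24% of its searched 3′ end, and 3.31% of its searched 3′ stretches occur in other genes, Serpinb6b among them.

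Among other sensors and their partners, 3 of 25 tested genes rose, 6 fell and 16 were not called (median -0.091). The share called was 36%, beside 21.9% of all genes tested. Panx1, a channel that releases ATP, went from 16.2, 17.9 and 24.1 to 58.0, 49.1 and 65.2 CPM, a log2 fold change of 1.57 ± 0.18. Besides Mndal and Ifi204, the RNA helicase gene Ddx3x fell, from 383.2 ± 15.7 to 229.0 ± 15.6 CPM (SD, n = 3). Zbp1, a sensor of Z-form nucleic acid chosen after its values were seen, had 7.53, 4.87 and 8.58 CPM in control and 0.565, 1.68 and 0.874 CPM in itaconate libraries (log2 fold change -2.72 ± 0.61). Txnip, a partner of NLRP3 also chosen after its values were seen, was called lower (-0.40 ± 0.11), but not with DESeq2 (adjusted p = 0.18) nor without control replicate 3 (-0.21, adjusted p = 0.109) or itaconate replicate 3 (0.191). Nek7, the kinase that NLRP3 needs to assemble, was not called (-0.17 ± 0.13, chosen after its value was seen), nor were Sugt1 and Dhx15 (-0.03 and -0.21), though Dhx15 was called lower with library totals (adjusted p = 0.0392). The call of Eif2ak2, the kinase PKR (-0.65 ± 0.19, chosen after its value was seen), was lost without control replicate 3 (adjusted p = 0.115) and without itaconate replicate 1 (0.115).

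**Figure D4:**
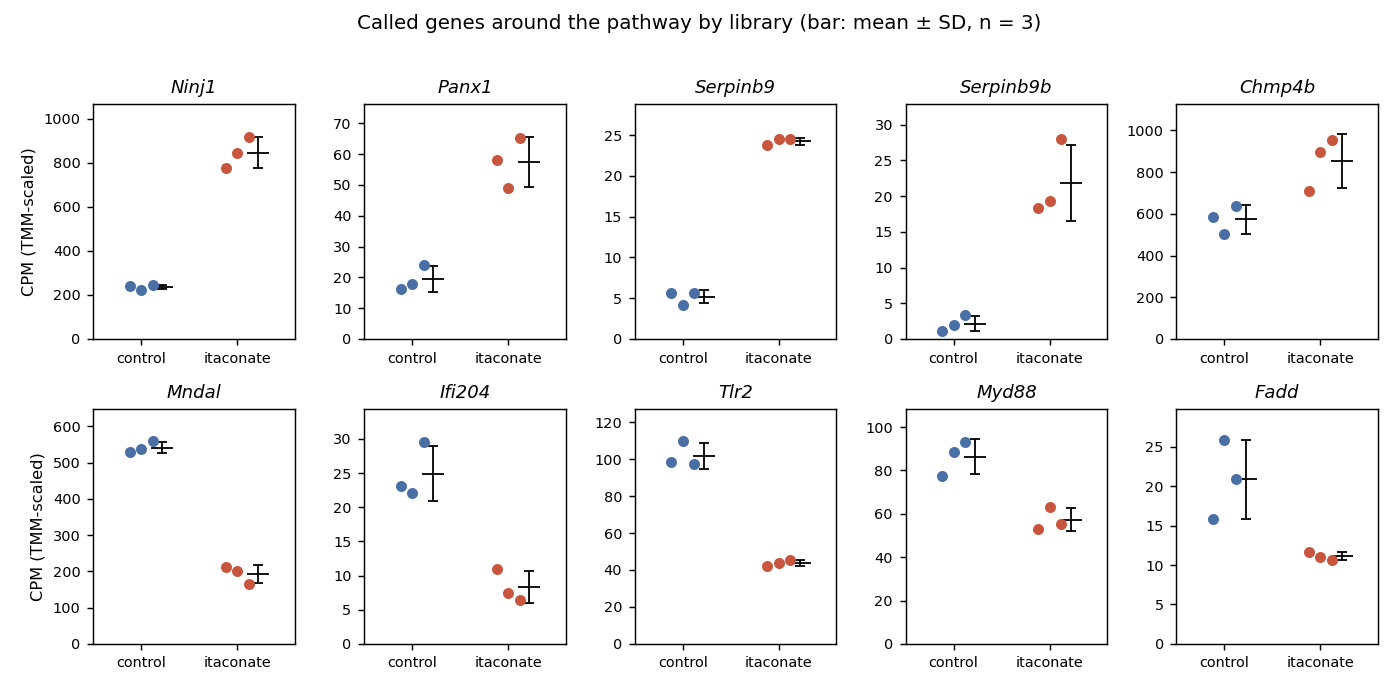
Level in every library of 10 called genes of the pathway lists, in TMM-scaled CPM on a linear axis from 0 with its own range in each panel. Points are libraries and bars the mean ± SD of 3 libraries. The upper row holds genes that were higher and the lower row genes that were lower in the itaconate group, and the groups overlap in none of these 10.

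Of the 17 tested genes of the priming step, 1 rose, 7 fell and 9 were not called (median -0.241). The share called was 47.1%, beside 21.9% of all genes tested, of which 10.7% were higher and 11.2% lower. Tlr2, the receptor of bacterial lipopeptides, went from 98.3, 110.0 and 97.2 to 42.2, 43.5 and 45.5 CPM (log2 fold change -1.22 ± 0.13), and Cd14 (-0.96 ± 0.08), which the macrophage markers also hold, and the adaptor gene Myd88 (-0.59 ± 0.13) fell as well. Exons of Acaa1a on the opposite strand cover 31.4% of the searched 3′ end of Myd88. The lipopolysaccharide receptor gene Tlr4 and the kinase gene Irak1 were not called (0.12 ± 0.10 and 0.20 ± 0.09). The gene that rose was Ticam1, which encodes the adaptor TRIF (0.47 ± 0.17), and its call was lost in 8 of the 12 alternatives, among them DESeq2 (adjusted p = 0.0607) and library totals (0.0665). Of the 7 that fell, the kinase gene Ikbkb (-0.39 ± 0.14) and the NF-kB inhibitor gene Tnfaip3 (-2.28 ± 0.78) each lost the call in 6 alternatives, with DESeq2 adjusted p of 0.126 and 0.0636. Tnfaip3 had 69 counts over the control and 13 over the itaconate libraries, and its log2 fold change was -3.77 without itaconate replicate 1. Rela also fell (-0.50 ± 0.14, edgeR adjusted p = 0.00428), as did the inhibitor gene Nfkbia, given above. Ticam1, Ikbkb, Tnfaip3 and Rela were named after their values were seen.

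In the list of other caspases 0 of 8 rose and 2 fell (25% called, beside 21.9% of all genes, median -0.112). They were Fadd, the adaptor of caspase-8, at -0.91 ± 0.26, and Casp2 at -0.64 ± 0.19. The call of Fadd was lost without control replicate 2 (adjusted p = 0.0964) and that of Casp2 without control replicate 1 (0.0535) or itaconate replicate 3 (0.068). Cflar and Casp9, from the same list, were not called (0.07 and 0.08). Among necroptosis partners 1 of 8 rose, the tumour necrosis factor receptor gene Tnfrsf1a (0.42 ± 0.12), and 0 fell (12.5% called, median -0.115). Ripk1 was at -0.24 and Xiap at -0.08.

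The interleukin-1 and interleukin-18 family had 5 tested genes, of which 0 rose and 1 fell (20% called, beside 21.9% of all genes, median -0.318). Il1rl1, the receptor of interleukin-33, was the one that fell (-0.80 ± 0.25), a call lost without itaconate replicate 2 (adjusted p = 0.0771) or itaconate replicate 3 (0.0861). Il1rn, the antagonist of the interleukin-1 receptor, and Il18rap, a subunit of the interleukin-18 receptor, were not called (-0.20 ± 0.15 and -1.36 ± 0.70). The Il18rap value rests on control replicate 1, which held 54 of its 75 control counts, and was -0.17 without it. Il1a had 5 counts in itaconate replicate 1 and 0 in each other library, and Il33 and Il18r1 had 0 counts throughout. Some guanylate-binding proteins and immunity-related GTPases open pathogen membranes for AIM2 and caspase-11. In the list of these families the 3 tested genes were Irgm1, Irgm2 and Igtp, and 0 of the 3 were called (median -0.419). Over all genes tested 21.9% were called. The membrane-opening role is not ascribed to these 3 genes here. Irgm1 (-0.92 ± 0.35) was called lower in 4 of the 12 alternatives, among them limma-voom (adjusted p = 0.0423) and the fit without itaconate replicate 1 (-1.38, adjusted p = 0.00985), and Igtp (-0.42 ± 0.33) without itaconate replicate 3 (-1.04, adjusted p = 0.0331). At an unadjusted p under 0.05 edgeR passed 1 of the 3, beside 32.2% of all genes tested. The guanylate-binding protein genes stayed under the filter, with Gbp3 at 24 counts over the control and 0 over the itaconate libraries, Gbp7 at 54 and 7, and Gbp5 at 0 in both (chosen after their values were seen).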

How the data were processed

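The authors deposited raw read counts per gene symbol for 6 libraries. Per the labels' protocols the kit was QuantSeq FWD of Lexogen. Build mm10 and the tools HTSeq 0.6.1, STAR 2.7.5a and edgeR appear in the submitters' processing notes. The strand setting, the annotation version and the handling of multi-mapping reads are not stated there. All 6 count columns were used and matched to samples through the header line, and groups came from the treatment label. The filterByExpr function of edgeR (minimum count 10, minimum total 15) kept 10636 genes with 99.74% of counts. Libraries were scaled by TMM and tested in R 4.3.3 with the robust quasi-likelihood method of edgeR 4.0.16 (group as the only term, two-sided, Benjamini-Hochberg over all tested genes). The threshold for a call was an adjusted p under 0.05. SE was derived from F as |log2 fold change|/√F, and 95% intervals use the t distribution with edgeR's degrees of freedom, not adjusted for multiple genes. A gene with at most 3 counts over a group was taken as at the floor. The fits were tested on simulated data. Alternatives were DESeq2 1.42.0, limma-voom (limma 3.58.1), library totals, no filter, a stricter filter (5 CPM in 3 libraries), a replicate block and leaving out each library.

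The 10 genes and all lists were chosen with earlier results of these data known. From each list up to 4 called genes of smallest p and up to 2 uncalled genes of highest mean level were named. No inflammasome gene was called, so the rule for naming genes of like pattern gave none. Coordinates are from RefSeq for GRCm38.p6. Exons of other genes were looked for in the last 500 bases, and shared stretches of 50 bases in the last 300 bases, of GENCODE M21 coding transcripts. A few listed symbols were not found and are not analysed here.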

Additional observations from a re-analysis of the deposited data

How the results depend on the processing

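Counts over all genes kept within 1.5 times of 1133 higher and 1191 lower in each of the 12 alternatives. For the inflammasome genes, leaving out 1 library gave between 0 and 1 higher (Aim2) and between 0 and 1 lower (Il18), and the 6 other alternatives gave 0 and 0. The log2 fold changes of Nlrp3, Casp1, Casp4, Casp8, Gsdmd, Il18 and Aim2 kept their sign in all 12, and Nlrc4 did not. For the pathway lists, 10 to 12 genes were higher and 13 to 19 lower over the alternatives. Of the 28 called list genes, 19 kept the call in every alternative that tested them, 9 lost it in at least 1 (the cause was not tested) and 0 changed sign. Library totals in place of TMM shifted the median gene by -0.052 on the log2 scale. With the replicate number as a block, 1087 genes were higher and 1160 lower, with 12 and 15 of the list genes and 0 inflammasome genes called. Of the genes named, Irgm1 was called only with the block (adjusted p = 0.038) among these 2 fits. Ikbkb and Tnfaip3 were called only without it (adjusted p with the block 0.0676 and 0.0631). Libraries of the same number were not shown to be paired, since their deviations from the group means correlated across genes at -0.013, 0.017 and 0.038. With 217 to 1688 counts over a group, the tested inflammasome genes had 95% intervals that exclude only changes beyond the bounds given. For Pycard and Il1b, depth limits what can be said to the bound and the counting interval.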
